A study of Mus musculus with 9 samples.

Results

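The 39 mitosis genes described here encode the kinases, checkpoint proteins, kinetochore parts, motors and cytokinesis factors that carry a cell through division. They were chosen by gene symbol for their known roles, out of 16537 genes in the deposited table. Earlier results of these data were known at that choice, so the set may not be independent of them. All 39 were found there, and all 39 were among the 12837 genes with enough counts to be tested. The members were placed in 8 groups by role.

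At mitotic entry, cyclins bind and activate Cdk1, and Cdc25 phosphatases remove the inhibitory phosphates that hold this kinase back. Kinetochores then assemble on centromeres and capture spindle microtubules, while the spindle checkpoint restrains the anaphase-promoting complex until every chromosome is attached. That complex, a ubiquitin ligase, next marks cyclin B and the separase inhibitor for destruction, and the central spindle and a contractile ring divide the cell. In bone marrow, many progenitor stages divide, and mRNAs of these genes are known to accumulate in late S, G2 and M phase, so their level in a population follows the share of cycling cells as well as the level in each cell.

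Bone marrow cells of FVB/NJ mice, an inbred strain, were compared in 3 groups with 3 libraries each. The normal group, called HPC, held hematopoietic progenitor cells from wild-type animals at postnatal day 42. Both leukemic groups held leukemic progenitors (LP) of animals with the genotype PML-RAR, taken in the early phase of disease (early LP) or in the median phase (median LP). PML-RAR is the fusion of the PML protein with the retinoic acid receptor alpha, the driver of acute promyelocytic leukemia. None of the sources used here gives the promoter that drives the fusion gene, the sorting markers or the ages of the leukemic animals. Nor do the labels tell whether each library had its own animal, so p-values measure the spread between libraries, which may be technical. In bulk samples like these, fewer dividing cells and less RNA per dividing cell cannot be told apart.

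The libraries held 20.6 to 28.4 M (mega) fragments, recovered from whole steps in the deposited values. Each member had at least 247 recovered fragments in every library, and Mki67 reached 24429. Levels are given as counts per 1 M counts (CPM) of the library, after TMM scaling of the library totals. They come with the mean ± SD over 3 libraries, and they compare libraries, not genes. A gene was called when its adjusted p was under 0.05 in edgeR's quasi-likelihood test, with Benjamini-Hochberg adjustment over all genes tested. Every adjusted p below is from that test, and every change is a log2 fold change with its standard error (SE). Library HPC 3 stood apart from HPC 1 and 2 in the level of long transcripts, and the members it moved most are also given without it.

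The cell type labels were compared with marker lists. Of 12 stem and progenitor markers, 11 were called lower in early LP and the same number in median LP. The summed level of that list was 1139 to 1278 CPM in HPC, against 263 to 264 for early LP and 245 to 261 for median LP. Kit, a progenitor receptor, was at 237 to 253 CPM in all LP libraries against 413 to 459 in HPC, while Cd34 was at 249.8 to 309.8 CPM in HPC and 1.19 to 3.81 in LP. The summed level of 10 promyelocyte markers (8 called higher and 1 lower in early LP, 7 and 1 in median LP) was 13583 to 15404 CPM in HPC, against 37653 to 43057 for early LP and 31204 to 33401 for median LP. Of 14 tested erythroid markers 13 were called lower in early LP and 12 lower with 2 higher in median LP, and their sum was 3931 to 4286, 241 to 257 and 362 to 453 CPM in HPC, early LP and median LP. Of 7 tested megakaryocyte markers 6 were called lower in each LP group, and the sum over 8 was 136 to 172 CPM in HPC, against 9.93 to 13.0 for early LP and 8.90 to 11.96 for median LP, with Gp6 at 0 in every early LP library. That of 9 mature neutrophil markers, of which 2 were called higher and 2 lower in early LP and 2 and 5 in median LP, was 2802 to 5114, 8996 to 9266 and 11125 to 12323 CPM, and that of 11 lymphoid markers (5 tested, 4 called lower in early LP, 3 lower and 1 higher in median LP) 67.9 to 89.5, 1.42 to 2.26 and 2.81 to 4.97 CPM, with the B cell factor Pax5 and the T cell marker Cd8a at 0 in every HPC and early LP library. The HPC libraries thus held erythroid, megakaryocyte and stem cell transcripts at higher levels than the LP libraries, and the part of this difference in the results on mitosis genes was not tested.

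The promoters of 6 members are shown because they belong to members with large changes from HPC in each direction, and to Cdk1, which was not called. The sequences are from RefSeq on GRCm38.p6 and run from 120 bases before to 24 bases after the transcription start. The window of Cenpa, the centromere-marking histone H3 variant, is chr5:30666766-30666909 on the plus strand. That of Ube2c, an E2 enzyme of the anaphase-promoting complex, is chr2:164769809-164769952 on the plus strand, and that of Top2a, the topoisomerase that untangles sister DNA, is chr11:99024166-99024309 on the minus strand. The window of cyclin B2 (Ccnb2) is chr9:70421531-70421674 on the minus strand, that of Cdk1 is chr10:69352889-69353032 on the minus strand and that of Cdc25b is chr2:131186828-131186971 on the plus strand. Capitals mark matches to TTTGAA or TTCGAA, the cell cycle genes homology region (CHR), and to CCAAT, both on either strand.
Cenpa: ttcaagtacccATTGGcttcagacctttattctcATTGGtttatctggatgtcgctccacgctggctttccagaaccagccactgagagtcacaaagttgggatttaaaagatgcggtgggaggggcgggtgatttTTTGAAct
Ube2c: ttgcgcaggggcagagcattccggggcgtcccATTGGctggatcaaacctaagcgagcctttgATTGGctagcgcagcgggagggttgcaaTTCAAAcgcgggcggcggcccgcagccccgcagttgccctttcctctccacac
Top2a: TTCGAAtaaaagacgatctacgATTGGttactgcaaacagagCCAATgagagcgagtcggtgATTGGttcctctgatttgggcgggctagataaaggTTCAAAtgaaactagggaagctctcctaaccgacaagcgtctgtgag
Ccnb2: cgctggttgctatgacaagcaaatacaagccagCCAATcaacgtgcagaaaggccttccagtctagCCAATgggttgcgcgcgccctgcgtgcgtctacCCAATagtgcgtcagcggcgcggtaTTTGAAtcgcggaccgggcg
Cdk1: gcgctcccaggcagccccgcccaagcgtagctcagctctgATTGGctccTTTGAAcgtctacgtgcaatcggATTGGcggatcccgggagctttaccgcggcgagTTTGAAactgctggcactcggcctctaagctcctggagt
Cdc25b: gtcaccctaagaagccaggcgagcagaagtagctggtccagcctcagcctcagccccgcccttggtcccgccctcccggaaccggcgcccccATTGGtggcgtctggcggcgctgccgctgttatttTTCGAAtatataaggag

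All 6 windows held at least 1 CHR match and at least 1 CCAAT match, whether the gene was lower in LP (Cenpa, Ube2c, Top2a, Ccnb2), higher (Cdc25b) or not called (Cdk1). CHR elements are known to bind the DREAM and MuvB complexes, which repress cell cycle genes in resting cells and activate them before mitosis, and CCAAT boxes bind NF-Y. Promoter windows from 250 bases before to 50 bases after the start were matched by symbol for 33 of 39 members, with 36 windows because Bub3, Ect2 and Prc1 have a pair of overlapping ones. A CHR match, searched on both strands with the palindromic TTCGAA counted once, was found in 30 of the 36 windows (83.3%), against 19.2% of 32851 windows of all genes. CCAAT was in 77.8% of member windows and 37.4% of all, and both motifs were in 72.2% and 7.52%. An E2F word (TTCCCGC or TTGGCGC, either strand) was in 13.9% of member windows and 6.81% of all. Of the 108 matches in member windows, 5 pairs shared bases with each other.

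In most members the CHR lay near the start, since 27 member windows (75%) held it within 50 bases on either side, against 5.31% of all windows. Among 137 windows of other mitosis pathway genes listed further down, 38.7% held a CHR and 29.2% an E2F word. Among 40 windows of DNA replication genes these shares were 15% and 52.5%. The 27 members with a CHR had a median change of -0.23 in early LP against HPC and the 6 without one had -0.32, a description with no test.

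In early LP, mitosis genes were mostly lower than in HPC, by modest amounts. Of the 39 members, 24 fell, 2 rose (Cdc25b and Ttk) and 13 were not called. Without early LP 3 the count that rose was 1, and without median LP 1, which enters the shared estimate of spread, it was 4. The share called, 66.7%, stood beside 73.2% of all tested genes, and the split was uneven, with 61.5% of members called lower against 37.9% of all genes and 5.13% called higher against 35.3%. The median change of the members was -0.26, beside -0.04 for all genes tested. Outside chromosomes 8 and 15, where all members but Espl1 lie, the median of the chromosome medians of tested genes was -0.10. Changes were small in size, as no member reached a called 2-fold change, which 29.8% of all genes did, and the median absolute change was 0.26 against 0.54. All 3 early LP libraries lay below all 3 HPC libraries in 24 members and above them in 5, or 61.5% and 12.8%, beside 38.4% and 36.3% of all genes (74.7% in either direction).

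In median LP fewer members were called lower than in early LP. Here 17 members fell, 5 rose (Cdc25b, Ttk, Ect2, Ndc80 and Kif2c) and 17 were not called, so 56.4% were called beside 73.8% of all genes. The share called lower was 43.6%, beside 37.7% of all genes, and the share called higher 12.8%, beside 36%. The median change was -0.08, beside -0.04 for all genes. Outside chromosomes 8 and 15, where all members but Espl1 lie, the median of the chromosome medians of tested genes was -0.09. The members' median moved with the setting. It was -0.04 without HPC 2, -0.05 without median LP 2, -0.16 with upper quartile scaling (all genes -0.12) and -0.18 with limma on log2(FPKM + 1) (all genes -0.09). Cdc25b alone reached 2-fold, a size that 30.7% of all genes reached. Groups did not overlap in 18 members that were lower and 7 that were higher, or 46.2% and 17.9%, beside 39% and 36.8% of all genes (75.7% in either direction). Both comparisons use the same HPC libraries, so their values are set side by side without a test of their likeness.

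**Figure D1:**
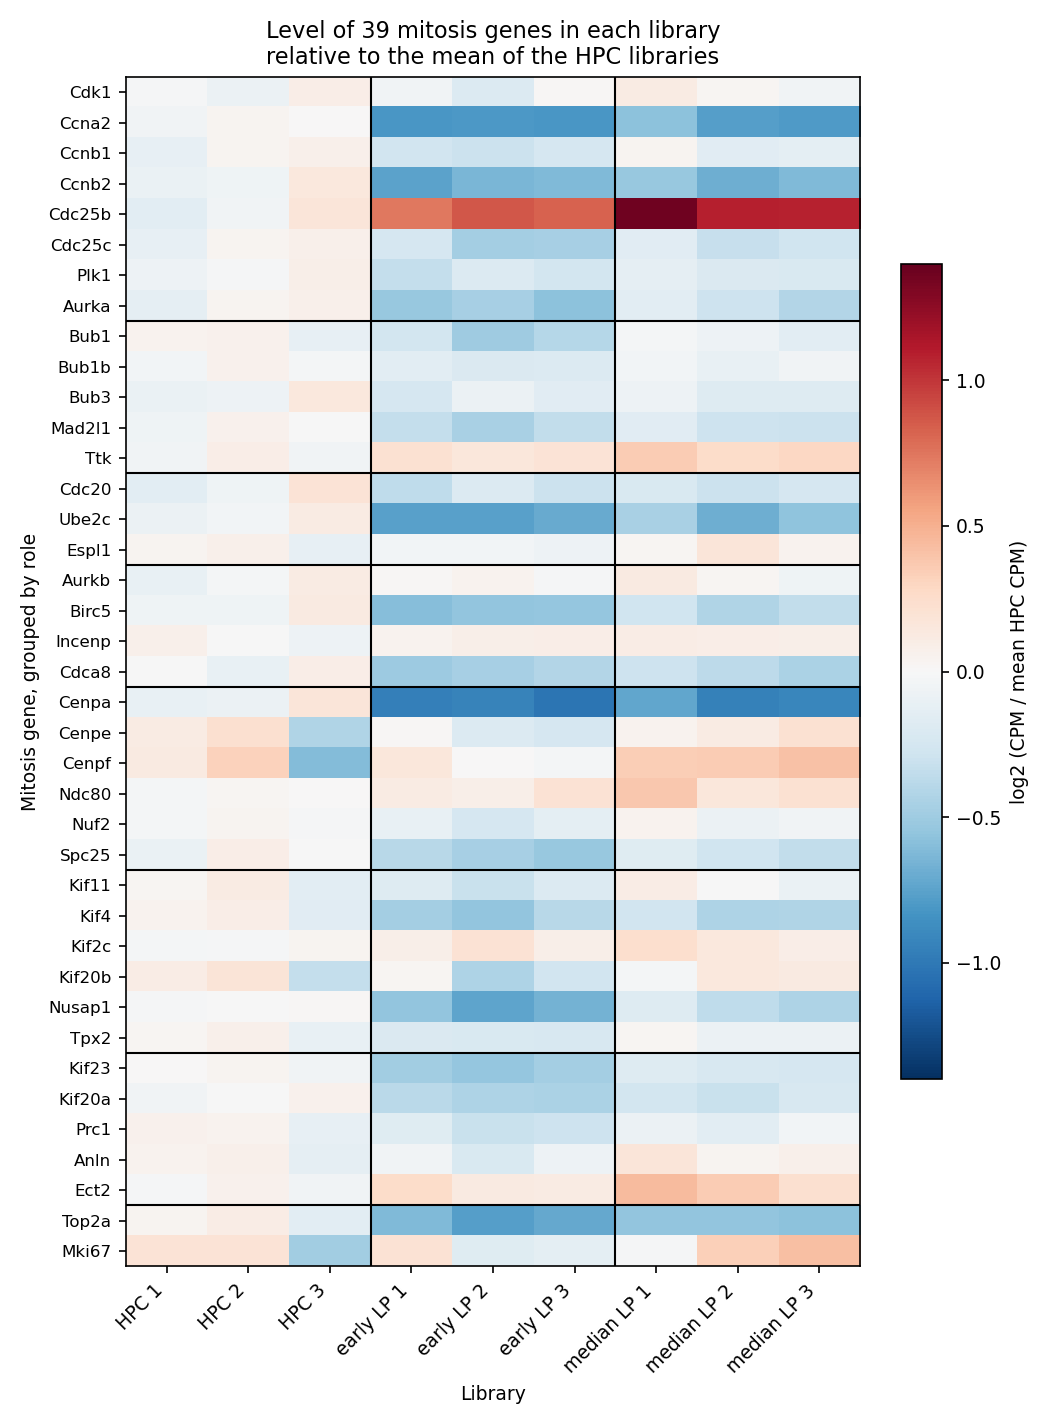
Level of each of the 39 mitosis genes (rows, grouped by role) in each of the 9 libraries (columns), as the log2 ratio of its CPM to the mean CPM of the 3 HPC libraries; blue is lower and red is higher. Early LP columns are mostly blue, median LP columns are paler, Cdc25b is red in all 6 LP libraries, and Cenpe, Cenpf, Kif20b and Mki67 are blue in HPC 3.

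Among the kinases, cyclins and phosphatases of mitotic entry, 6 of 8 members fell in early LP and 5 of 8 in median LP, and Cdc25b rose in both. Over all genes, 37.9% were called lower and 35.3% higher in early LP, and 37.7% and 36% in median LP. These shares also stand beside the counts of the other role groups. Cyclin A2 (Ccna2), a partner of Cdk1 and Cdk2 in S and G2 phase, was at 256, 273 and 267 CPM in HPC, 151, 152 and 151 in early LP, and 178, 155 and 153 in median LP. No LP library came near an HPC library. Ccna2 fell by 0.81 (SE 0.07, adjusted p 7.94e-07) in early LP and by 0.71 (SE 0.07, adjusted p 2.46e-06) in median LP. Its locus overlaps Exosc9, and no source used here says whether counting used strand, so reads of the 2 genes may not be fully separated.

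The B-type cyclins, the activating partners of Cdk1 in mitosis, moved by different amounts. Ccnb2 was at 99.6, 102 and 118 CPM in HPC, 63.3, 68.1 and 69.5 in early LP, and 73.8, 66.1 and 69.4 in median LP. The HPC range lay above all 6 LP libraries. Ccnb2 fell by 0.67 (SE 0.08, adjusted p 8.83e-06) in early LP and by 0.61 (SE 0.08, adjusted p 1.87e-05) in median LP. Cyclin B1 (Ccnb1) was at 148, 166 and 169 CPM in HPC, 134, 130 and 137 in early LP, and 165, 145 and 146 in median LP. Its median LP values overlapped HPC, while its early LP values did not. Ccnb1 fell by 0.27 (SE 0.07, adjusted p 0.00681) in early LP, and its change in median LP was -0.08 (adjusted p 0.334).

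Their kinase showed no called difference. Cdk1 was at 133, 127 and 144 CPM in HPC, 130, 118 and 137 in early LP, and 146, 137 and 131 in median LP, so all 3 groups overlapped. The change was -0.07 in early LP (95% interval -0.24 to 0.10) and 0.03 in median LP (-0.14 to 0.20).

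Cdc25b, the phosphatase that starts Cdk1 activation at mitotic entry, ran the other way and had the largest rise of the 39 members in both LP groups. It was at 29.5, 31.5 and 36.7 CPM in HPC, 54.3, 59.5 and 57.6 in early LP, and 83.8, 69.2 and 68.8 in median LP. The 3 groups formed 3 separate ranges, with HPC lowest and median LP highest. Cdc25b rose by 0.81 (SE 0.10, adjusted p 1.31e-05), or 1.75-fold, in early LP and by 1.18 (SE 0.10, adjusted p 4.57e-07), or 2.27-fold, in median LP. Its relative Cdc25c, which amplifies Cdk1 activation, had the fewest counts of the members, at 17.6 ± 1.16 CPM in HPC, against 13.4 ± 1.33 for early LP and 14.8 ± 0.854 for median LP (n = 3 each). Cdc25c fell in both groups, by 0.39 (adjusted p 0.00351) and by 0.25 (adjusted p 0.0352), and the latter call was lost without HPC 2, HPC 3, median LP 2 or median LP 3. The phosphatases of this pair thus differed from HPC in opposite directions.

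Polo-like kinase 1 (Plk1), which promotes entry, spindle assembly and cytokinesis, was at 107 ± 5.67 CPM in HPC, against 89.7 ± 4.32 for early LP and 94.8 ± 3.17 for median LP. It fell by 0.26 (adjusted p 0.00344) and by 0.18 (adjusted p 0.0266), and the call in median LP was lost without the same 4 libraries. Aurora kinase A (Aurka), which matures centrosomes, was at 72.3 ± 5.37, 50.3 ± 1.77 and 59.5 ± 5.47 CPM. It fell by 0.52 (adjusted p 9.01e-05) in early LP and by 0.28 (adjusted p 0.00738) in median LP.

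**Figure D2:**
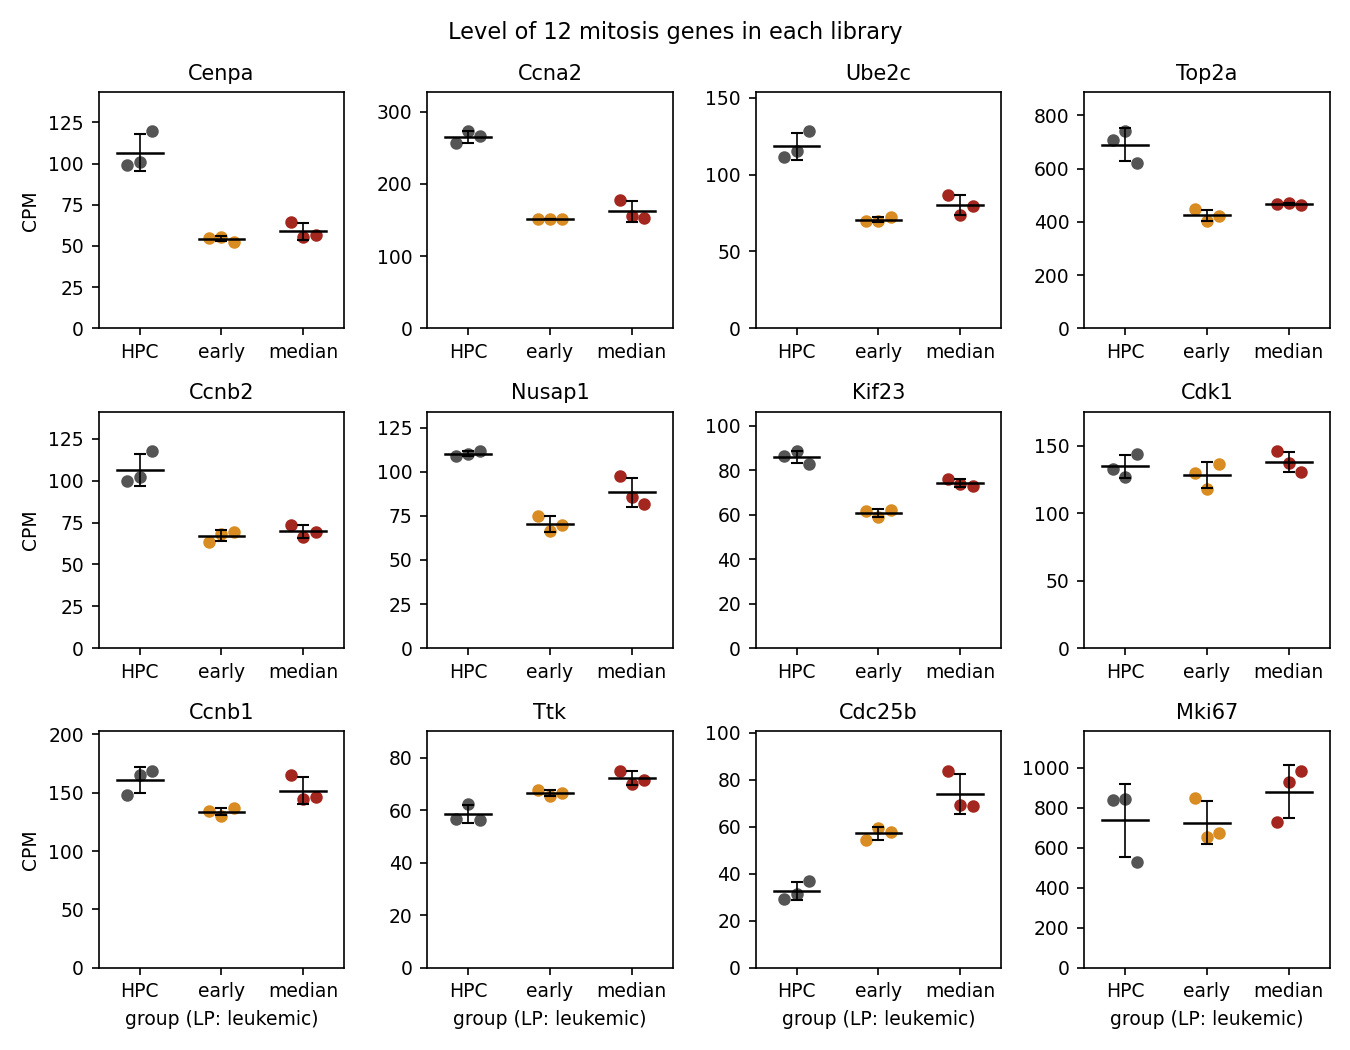
CPM of 12 mitosis genes (1 panel each, vertical axis from 0) in HPC, early LP and median LP; points are single libraries, the long line is the mean and the bar is the SD of 3 libraries. Cenpa, Ccna2, Ube2c, Top2a and Ccnb2 are lower in all LP libraries than in HPC, Cdc25b and Ttk are higher, Cdk1 overlaps in all groups, and the HPC point at 528 CPM lies far below the other HPC points of Mki67.

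In the spindle checkpoint group, 3 of 5 members fell and Ttk rose in early LP, and 1 fell and Ttk rose in median LP. Ttk, also called Mps1, is the kinase that starts checkpoint signalling at unattached kinetochores. Its levels were 56.7, 62.5 and 56.5 CPM in HPC, 67.9, 65.5 and 66.8 in early LP, and 75.1, 70.1 and 71.7 in median LP. The ranges of the 3 groups did not touch. Ttk rose by 0.19 (SE 0.06, adjusted p 0.016) in early LP and by 0.30 (SE 0.06, adjusted p 0.000773) in median LP. The call in early LP was lost without early LP 3 (with upper quartile scaling and limma too), at adjusted p values up to 0.102.

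The checkpoint proteins recruited after Ttk were lower or not called. Mad2l1 (Mad2), which binds and holds Cdc20, was at 111 ± 4.73 CPM in HPC, against 85.9 ± 4.07 for early LP and 93.8 ± 4.92 for median LP, and it fell by 0.37 (adjusted p 0.000278) and by 0.25 (adjusted p 0.00487). The kinase Bub1 was at 121 ± 8.27, 93.0 ± 7.86 and 115 ± 4.63 CPM and fell by 0.38 (adjusted p 0.000874) in early LP, with -0.08 (adjusted p 0.37) in median LP. Bub1b (BubR1), a subunit of the mitotic checkpoint complex, was at 210 ± 7.98, 185 ± 3.56 and 201 ± 4.70 CPM, and it fell by 0.18 (adjusted p 0.0175) in early LP, a call lost without HPC 2, early LP 2 or early LP 3. Bub3, the adaptor of both Bub kinases, was at 158 ± 14.98, 142 ± 7.23 and 143 ± 6.48 CPM and was not called in either group. In this group the kinase at the top of the pathway and the effector Mad2l1 therefore differed from HPC in opposite directions.

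The members around the anaphase-promoting complex were lower in LP, apart from separase. Ube2c was at 111, 115 and 128 CPM in HPC, 69.9, 69.6 and 72.4 in early LP, and 86.4, 73.6 and 79.8 in median LP. All HPC values exceeded all LP values. Ube2c fell by 0.74 (SE 0.08, adjusted p 2.64e-06) in early LP and by 0.57 (SE 0.07, adjusted p 2.69e-05) in median LP. Cdc20, the activator that the checkpoint holds back, was at 147 ± 18.1 CPM in HPC, against 121 ± 7.06 for early LP and 124 ± 4.07 for median LP. It fell by 0.28 (adjusted p 0.0121) and by 0.25 (adjusted p 0.0221), its locus overlaps Elovl1, the call in early LP was lost without early LP 1, and that in median LP without median LP 2 or HPC 3, its highest library at 168 CPM. Espl1 (separase), the protease that cuts cohesin at anaphase, was at 119 ± 7.70, 115 ± 1.77 and 126 ± 6.55 CPM with changes of -0.05 and 0.08, neither called.

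The chromosomal passenger complex, which corrects wrong attachments and later guides cytokinesis, divided into 2 called and 2 uncalled members in each comparison. Birc5 (survivin) was at 107 ± 8.13 CPM in HPC, against 72.2 ± 1.55 for early LP and 83.8 ± 3.91 for median LP and fell by 0.56 (adjusted p 1.26e-05) and by 0.35 (adjusted p 0.000581). Cdca8 (borealin) was at 138 ± 9.10, 100.3 ± 3.55 and 107 ± 5.77 CPM and fell by 0.46 (adjusted p 9.21e-05) and by 0.36 (adjusted p 0.000533). These 2 are the targeting subunits of the complex. The kinase subunit Aurkb was at 109 ± 8.35, 111 ± 2.38 and 112 ± 6.90 CPM, with 95% intervals of its change of -0.14 to 0.18 in early LP and -0.12 to 0.19 in median LP. The scaffold Incenp was at 198, 189 and 180 CPM in HPC, 196, 200 and 201 in early LP, and 204, 202 and 199 in median LP. Early LP overlapped HPC while median LP lay just above it, and the changes of 0.07 and 0.09 were not called.

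Cenpa had the largest fall of all 39 members in both comparisons. Its levels were 99.2, 101 and 120 CPM in HPC, 54.7, 55.7 and 52.6 in early LP, and 64.3, 55.3 and 56.7 in median LP. Every LP library was far below every HPC library. Cenpa fell by 0.97 (SE 0.08, adjusted p 7.21e-07) in early LP, or 1.96-fold, and by 0.86 (SE 0.08, adjusted p 2.12e-06) in median LP.

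The Ndc80 complex, the microtubule-binding part of the kinetochore, was not uniform. Ndc80 itself was at 50.4, 52.5 and 51.7 CPM in HPC, 56.0, 54.7 and 59.1 in early LP, and 67.1, 57.5 and 59.6 in median LP. All LP libraries lay above HPC. Its change was 0.14 (SE 0.07, adjusted p 0.0969) in early LP, called only without median LP 1 (adjusted p 0.0499), and it rose by 0.25 (SE 0.07, adjusted p 0.00558) in median LP. Its direct partner Nuf2 was at 79.7 ± 1.67, 71.5 ± 3.39 and 78.1 ± 3.66 CPM, with a fall of 0.16 (adjusted p 0.039) in early LP that was lost under 10 of the 19 alternatives tried, among them leaving out HPC 1, HPC 2, early LP 2, early LP 3, median LP 2 or median LP 3. Spc25, in the inner end of the complex, was at 44.9 ± 2.92, 32.7 ± 1.67 and 37.4 ± 2.37 CPM and fell by 0.46 (adjusted p 0.000147) and by 0.26 (adjusted p 0.00697), the latter not called without HPC 2. So 1 subunit rose and 1 fell in median LP.

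Cenpe, the kinesin that moves chromosomes to the spindle equator, and Cenpf, a large outer kinetochore protein, were not called. Cenpf was at 109, 126 and 66.0 CPM in HPC, 112, 101 and 99.0 in early LP, and 128, 129 and 133 in median LP. HPC 3 was the lowest library, and the changes were 0.05 (95% interval -0.34 to 0.43) in early LP and 0.37 (-0.01 to 0.75) in median LP. Without HPC 3 they were -0.18 (adjusted p 0.0515) and 0.14 (adjusted p 0.122). In median LP Cenpf was called higher without HPC 2 (0.59, adjusted p 0.00769), with the length offset (0.42, adjusted p 0.00203) and with the replicate number as a block (0.41, adjusted p 0.0456), so its direction in early LP and its call in median LP depended on the setting. Cenpe was at 132, 143 and 91.2 CPM in HPC, with 111 ± 10.5 in early LP and 133 ± 7.43 in median LP.

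**Figure D3:**
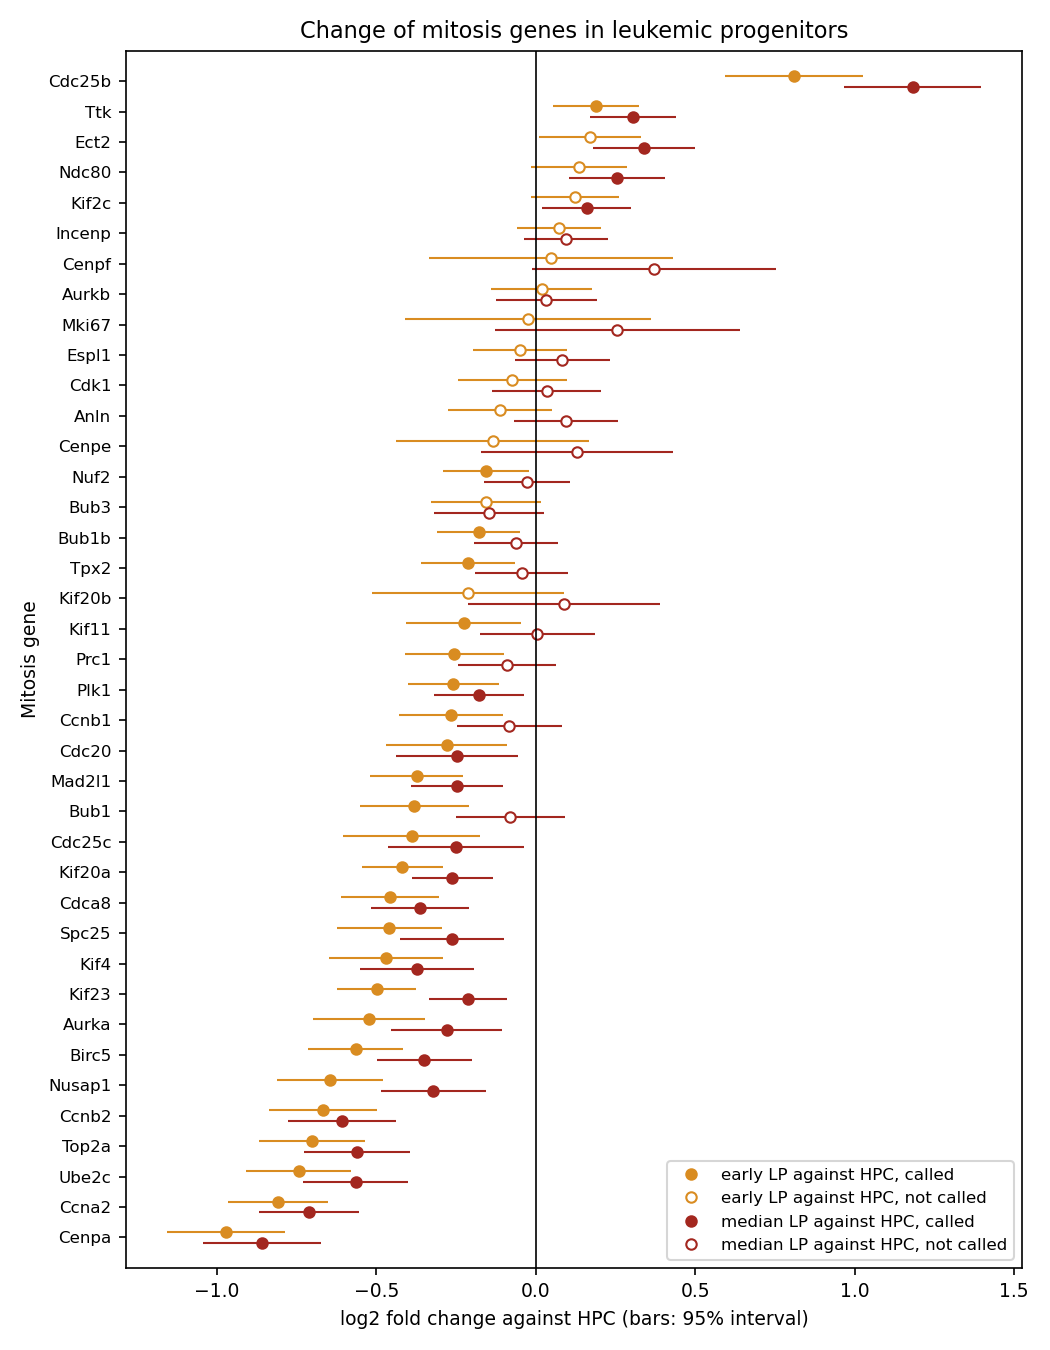
Log2 fold change of each mitosis gene against HPC in early LP (orange) and median LP (dark red), with 95% intervals, sorted by the change in early LP; filled points have an adjusted p under 0.05. Most early LP points lie left of 0, from -0.97 for Cenpa to 0.81 for Cdc25b, and each median LP point lies to the right of its early LP point.

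Of the spindle kinesins and microtubule factors, 4 of 6 fell in early LP, while 2 fell and 1 rose in median LP. Nusap1, which bundles microtubules near chromosomes, was at 109, 110 and 112 CPM in HPC, 75.1, 66.3 and 70.0 in early LP, and 97.3, 85.9 and 81.4 in median LP. Its 3 groups did not overlap, with median LP between early LP and HPC. Nusap1 fell by 0.65 (SE 0.08, adjusted p 9.39e-06) in early LP and by 0.32 (SE 0.08, adjusted p 0.00211) in median LP, and its locus overlaps Oip5. Kif4, a chromokinesin that also shortens the central spindle, was at 79.4, 81.8 and 68.7 CPM in HPC, 55.2, 52.1 and 58.6 in early LP, and 63.8, 56.7 and 57.1 in median LP. The lowest HPC library was HPC 3, and it still lay above all LP libraries. Kif4 fell by 0.47 (adjusted p 0.000243) and by 0.37 (adjusted p 0.00137).

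Kif2c (MCAK), which depolymerizes microtubules at centromeres, was at 63.8, 64.5 and 66.7 CPM in HPC, 69.0, 74.8 and 68.6 in early LP, and 76.8, 71.9 and 69.1 in median LP. All LP values lay above HPC, by little. The change was 0.12 (adjusted p 0.1) in early LP, and the rise of 0.16 (SE 0.06, adjusted p 0.0386) in median LP was lost under 9 of 19 alternatives, among them leaving out HPC 1, HPC 2, early LP 3, median LP 1 or median LP 2. The bipolar spindle motor Kif11 was at 201 ± 18.2, 171 ± 8.61 and 201 ± 13.9 CPM and fell by 0.23 (adjusted p 0.027) in early LP, a call lost without HPC 1, HPC 2, early LP 2 or early LP 3. Tpx2, the activator of Aurora A on spindles, was at 177 ± 11.4, 153 ± 1.45 and 171 ± 7.47 CPM and fell by 0.21 (adjusted p 0.0133) in early LP, a call lost without HPC 1, HPC 2 or early LP 3. Kif20b, a motor of the central spindle, was at 114 ± 20.7, 98.3 ± 16.0 and 121 ± 7.82 CPM and was not called, though it was called lower in early LP without HPC 3 (-0.36, adjusted p 0.0133) or early LP 1 (adjusted p 0.0453).

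Among the central spindle and cytokinesis genes, 3 of 5 fell in early LP, while 2 fell and Ect2 rose in median LP. Kif23 (MKLP1), the motor subunit of centralspindlin, was at 86.5, 88.6 and 83.0 CPM in HPC, 61.6, 58.9 and 62.1 in early LP, and 76.1, 73.6 and 73.0 in median LP. The 3 groups were separate, with tight replicates. Kif23 fell by 0.50 (SE 0.06, adjusted p 7.28e-06) in early LP and by 0.21 (SE 0.06, adjusted p 0.00482) in median LP. Ect2, the exchange factor that centralspindlin recruits to activate RhoA, was at 83.8, 88.3 and 81.5 CPM in HPC, 101, 92.5 and 91.6 in early LP, and 115, 108 and 98.4 in median LP. All 6 LP values lay above HPC. Its change was 0.17 (SE 0.07, adjusted p 0.0529) in early LP, called without HPC 2 or median LP 1, and it rose by 0.34 (SE 0.07, adjusted p 0.00114) in median LP.

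Kif20a (MKLP2), which carries the passenger complex to the central spindle, was at 98.5 ± 3.89, 73.7 ± 1.75 and 82.2 ± 2.68 CPM and fell by 0.42 (adjusted p 4.13e-05) and by 0.26 (adjusted p 0.00149). Its locus overlaps Cdc23 and Brd8. Prc1, the bundler of antiparallel microtubules, was at 120 ± 7.85, 101 ± 5.55 and 113 ± 4.50 CPM and fell by 0.26 (adjusted p 0.00629) in early LP. Anillin (Anln), the scaffold of the contractile ring, was at 105 ± 7.86, 97.4 ± 6.01 and 112 ± 5.001 CPM and was not called. The early LP change of Anln was -0.17 (adjusted p 0.0379) without HPC 3.

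Top2a and Mki67, the 2 members with the most counts, behaved differently. Top2a was at 709, 740 and 621 CPM in HPC, 448, 405 and 420 in early LP, and 469, 471 and 463 in median LP. The lowest HPC value, in HPC 3, was well above every LP value. Top2a fell by 0.70 (SE 0.08, adjusted p 4.85e-06) in early LP and by 0.56 (SE 0.08, adjusted p 3.16e-05) in median LP. Mki67, the gene of the proliferation marker Ki-67 that coats mitotic chromosomes, was at 839, 845 and 528 CPM in HPC, 847, 655 and 671 in early LP, and 729, 928 and 984 in median LP. Its groups overlapped, and its SD in each group was the largest of the 39 members in CPM. The change was -0.03 (SE 0.18, 95% interval -0.41 to 0.36) in early LP and 0.26 (SE 0.18, -0.13 to 0.64) in median LP, and neither change was called. Without HPC 3 the changes were -0.22 (adjusted p 0.153) and 0.06 (adjusted p 0.68). With an offset for the trend of counts against transcript length within each group, the change in median LP was 0.27 and was called higher (adjusted p 0.00119), while that in early LP was 0.00 (adjusted p 0.961). This offset takes out spread between the libraries of a group by its design. It does not correct the difference between groups for length.

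The spread of Mki67 and Cenpf in HPC came with transcript length. In HPC 3, all 12 members with transcripts over 4000 bases had their lowest HPC value, while of the 27 shorter members 17 had their highest HPC value there. The 4000 base limit was chosen after the values were seen. Across the 39 members, the log2 difference of HPC 3 from HPC 1 and 2 had a Pearson correlation of -0.86 with log10 length. This is a description over genes that share 3 libraries. Slopes were also fitted over all tested genes above a level cut, on deviations from the mean of each library's own group. HPC 3 had a slope of -0.45 log2 units per 10-fold in length, against -0.19 to 0.25 in the other 8 libraries. Slopes within a group balance each other by this design, so those of HPC 1 and 2 are not independent of HPC 3. Among the 12 long members 5 fell and 0 rose in early LP, and among the 27 shorter ones 19 fell and 2 rose. The changes also rose with length, with Spearman correlations of 0.42 in early LP, 0.56 in median LP and 0.43 between the LP groups. The median changes of long and shorter members were -0.17 and -0.28 in early LP and 0.09 and -0.21 in median LP. Between the LP groups they were 0.22 and 0.12, and the part of length was not tested. Without HPC 3, 27 members fell in early LP and 14 in median LP, in place of 24 and 17. Cenpe (-0.31, adjusted p 0.00638), Kif20b and Anln were the 3 added in early LP.

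**Figure D4:**
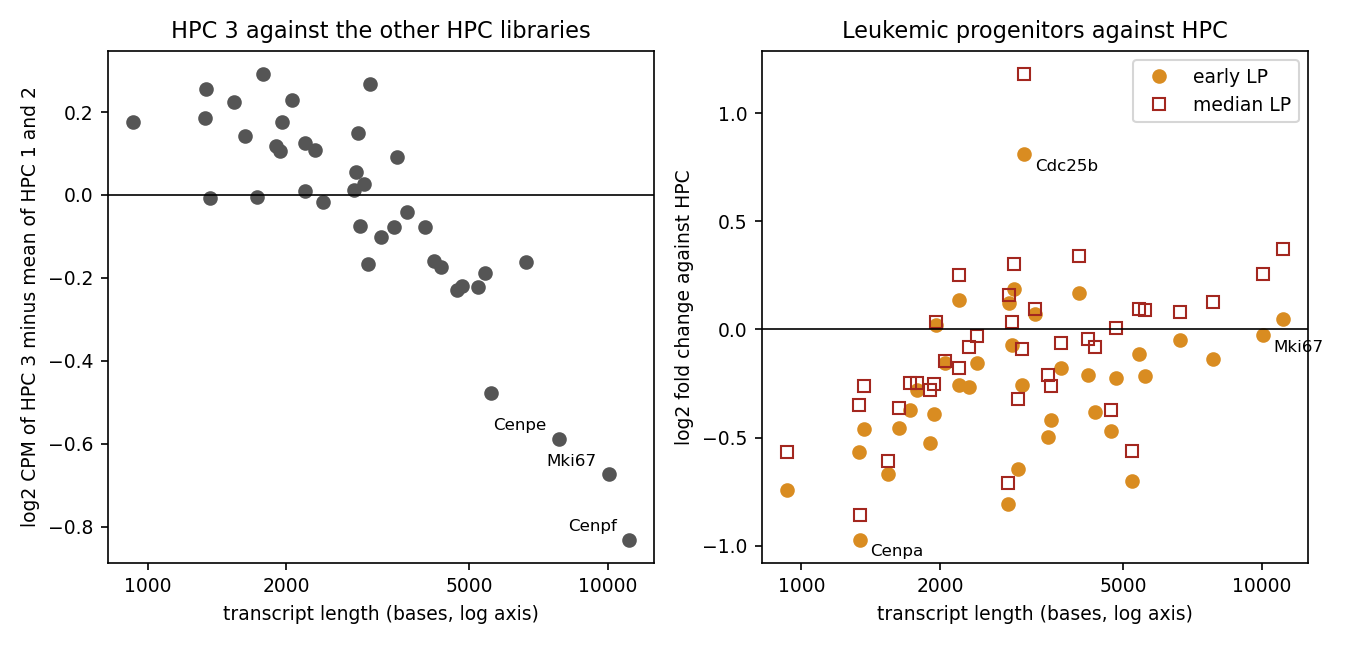
Left, difference of HPC 3 from the mean of HPC 1 and 2 (log2 CPM) against transcript length on a log axis for the 39 mitosis genes; right, change of the same genes against HPC in early LP (circles) and median LP (squares). In the left panel the points fall from above 0 for short transcripts to -0.83 for Cenpf, the longest.

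Summed over the 39 members, the level was 5328 to 5916 CPM in HPC, against 4533 to 4883 for early LP and 5249 to 5290 for median LP. The lowest HPC sum was HPC 3, which sat between the LP groups and the other HPC libraries. Per length, in summed FPKM (fragments divided by transcript length in kilobases and by library depth in M), the sums were 1533 to 1719 in HPC, against 1208 to 1230 for early LP and 1261 to 1415 for median LP, and HPC 3 had the highest value. On that scale both LP groups lay below all HPC libraries, and median LP lay above early LP. The FPKM values were used as deposited, without the TMM scaling of the CPM values. Its factors were 1.06 to 1.09 in HPC and 0.93 to 0.99 in LP, so the scales differ in more than length. The part of each was not tested. On the scaled CPM values the members made up 0.453 to 0.592% of a library, which is not their share of unscaled counts.

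Levels of different members can be compared on the FPKM scale. In HPC the highest mean levels were those of Ube2c at 145 FPKM, Top2a at 92.0, Birc5 at 90.1, Cenpa at 89.7 and Ccna2 at 86.1, and the lowest were those of Cenpf at 5.53 and Cdc25c at 8.13. Ube2c remained at the top in early LP (84.8 FPKM) and median LP (95.7 FPKM). Cenpa moved from rank 4 in HPC to rank 12 in both LP groups, and Cdc25b moved from rank 36 to rank 30 in early LP and 23 in median LP. The order as a whole was similar, with a Spearman correlation of 0.95 between HPC and early LP over the 39 genes, given as a description.

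Between the LP groups, every one of the 39 members had a change above 0 in median LP against early LP, with a median of 0.14 beside 0.00 for all genes tested. The changes ran from 0.01 for Bub3 to 0.37 for Cdc25b, and 49.8% of all genes were above 0. Called members numbered 2, both higher (5.13%), beside 2.48% of all genes called, of which 1.48% were higher and 0.997% lower. Without HPC 3 the count was 6, without HPC 1 or HPC 2 it was 1 (Kif23 alone), and without any 1 of the 6 LP libraries it was 0. None was called at 2-fold or more, beside 1.04% of all genes. All median LP libraries lay above all early LP libraries in 23 members (59%), beside 12.4% of all genes, and below them in 0, beside 13.7% (26.1% in either direction). Single members therefore mostly missed the threshold, and the common sign is a count over genes that share the same 6 libraries.

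The 2 called members were Nusap1 and Kif23, whose library values are given above. Nusap1 rose by 0.32 (SE 0.08, adjusted p 0.0484) and Kif23 by 0.29 (SE 0.06, adjusted p 0.0242), each with 3 of 3 median LP libraries above early LP. Both calls were lost whenever any 1 of the 6 LP libraries was left out, with adjusted p of 0.0521 to 0.212 for Nusap1 and 0.0644 to 0.115 for Kif23 over the alternatives that lost them. Cdc25b (0.37, adjusted p 0.0714) and Bub1 (0.30, adjusted p 0.0741) came next and were not called. The count above 0 was 36 when median LP 1 was left out, 37 without early LP 1, 38 without early LP 3 and 39 without each of the other 6 libraries. Among promyelocyte markers 9 of 10 changes were below 0 in this comparison, and the part of cell composition in the members' shift was not tested.

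A list of 44 DNA replication genes, which act in S phase, ran the other way between the LP groups. Of these, 41 had a change below 0, with a median of -0.13, and 56.8% had all median LP libraries below early LP, beside 13.7% of all genes. The 3 called were lower: the helicase subunit Mcm7 (-0.27, adjusted p 0.0429), the replisome factor Gins2 (-0.33, adjusted p 0.0497) and thymidine kinase Tk1 (-0.52, adjusted p 0.0284). Against HPC, 23 of the 44 fell and 9 rose in early LP, and 29 fell and 7 rose in median LP, with median changes of -0.17 and -0.29. Over all genes, 37.9% were called lower and 35.3% higher in early LP, and 37.7% and 36% in median LP. By signed median change, mitosis genes lay closer to HPC in median LP than in early LP, and replication genes lay farther from it. The median absolute change of the mitosis genes hardly differed, at 0.26 in early LP and 0.25 in median LP. That of the replication genes was 0.28 and 0.34. The difference between the lists was not tested.

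**Figure D5:**
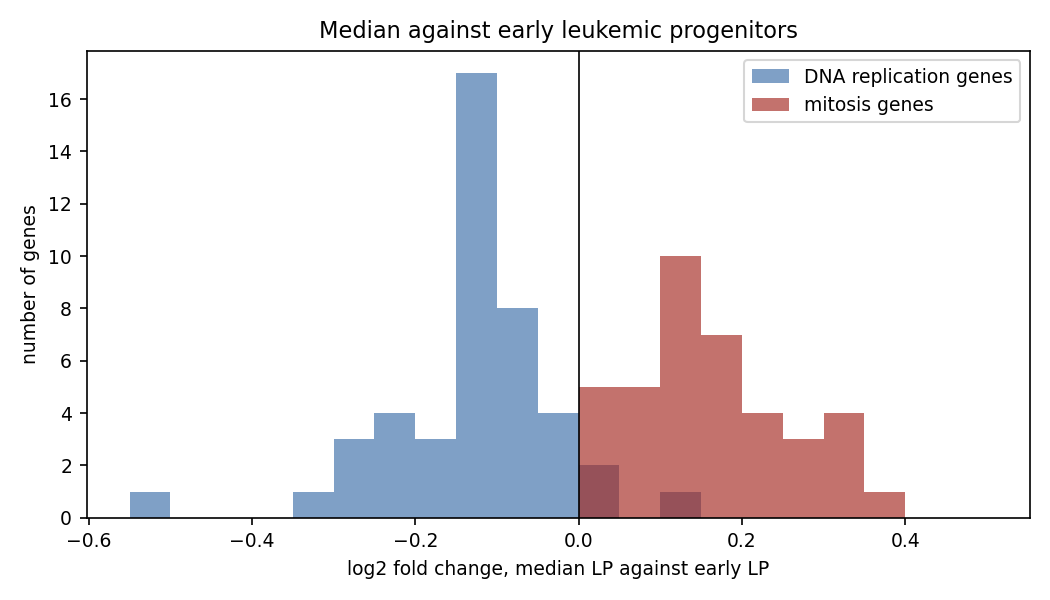
Number of genes by log2 fold change of median LP against early LP, for the 39 mitosis genes (red) and 44 DNA replication genes (blue), in steps of 0.05. All mitosis genes lie right of 0 and 41 of the replication genes lie left of it.

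Other genes of the pathway were taken from 6 lists with 141 genes in the table, of which 140 were tested. In early LP 64 fell and 31 rose, and in median LP 47 fell and 32 rose, or 67.9% and 56.4% called. Of all genes tested, 73.2% and 73.8% were called, 37.9% and 37.7% lower and 35.3% and 36% higher. These shares also stand beside the counts of each list below. The median changes of the 140 genes were -0.15 and -0.09, between those of the members and of all genes in early LP. In median LP against early LP 0 of the 140 were called and 89 were above 0, with a median of 0.04. Of the members, 2 of 39 were called higher in early LP and 5 of 39 in median LP. Of the 122 tested partners outside chromosomes 8 and 15, 16 and 18 were called higher. The difference between members and partners was not tested.

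Of 16 anaphase-promoting complex subunits and regulators, 7 fell and 3 rose in early LP and 7 fell and 2 rose in median LP. The subunits Cdc27 (-0.65, adjusted p 2.82e-05), Cdc23 (-0.60, adjusted p 2.5e-06) and Cdc26 (-0.35, adjusted p 0.000808) fell in early LP, in the same direction as Ube2c and Cdc20. Of 29 genes of the inner centromere network and outer kinetochore, 17 fell and 5 rose in early LP and 13 fell and 5 rose in median LP, with Cenpi (-0.77) and Cenpp (-0.95) among those lower and Cenpt (0.72) among those higher. Of 19 tested checkpoint and entry regulators, 9 fell and 4 rose in early LP and 6 fell and 4 rose in median LP. Arpp19, an inhibitor of the phosphatase that opposes Cdk1, fell by 0.85 (adjusted p 3.45e-07) in early LP, and Wee1, the kinase that inhibits Cdk1 against Cdc25, rose by 0.46 (adjusted p 6.31e-05).

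Cohesin and condensin genes divided more evenly than the members, with 9 of 24 lower and 7 higher in early LP, and 6 lower and 7 higher in median LP. All genes tested also divided evenly, with 37.9% lower and 35.3% higher in early LP, and 37.7% and 36% in median LP. Rad21, a cohesin subunit and the substrate of separase, rose by 0.61 (adjusted p 2.97e-06) in early LP, and the condensin subunit Ncaph fell by 0.65 (adjusted p 4.1e-06). Of 32 other spindle and midbody genes, 14 fell and 6 rose in early LP and 8 fell and 9 rose in median LP. Racgap1, the partner of Kif23 in centralspindlin, rose by 0.84 (SE 0.06, adjusted p 1.34e-07) in early LP while Kif23 fell, so the subunits of this complex differed in direction. Haus1, a subunit of the augmin complex, fell by 1.19 (adjusted p 2.69e-07).

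Of 20 cell cycle transcription regulators, 8 fell and 6 rose in early LP, and 7 fell and 5 rose in median LP. The lowest adjusted p in early LP belonged to E2f6 (-1.45, adjusted p 2.14e-09), a repressor of the E2F family, Rbl2 (0.87, adjusted p 7.14e-08), the p130 subunit of DREAM, and Tfdp2 (-1.14, adjusted p 1.72e-07), an E2F partner. Foxm1 and Mybl2, the factors that activate CHR promoters in G2, were not called, with changes of -0.02 (adjusted p 0.759) and 0.03 (adjusted p 0.635) in early LP.

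Chromosome 8 and 15 genes as a whole were higher in LP, and this touched the partner lists more than the members. The median change of all tested genes was 0.53 on each of these chromosomes in early LP and 0.51 in median LP, against -0.18 to 0.00 and -0.15 to -0.01 on the others. Of the partner genes, 18 tested ones lie there, and they made up 15 of the 31 called higher in early LP and 14 of the 32 in median LP, Racgap1, Rad21, Cenpt and Rbl2 among them. Of the 39 members only Espl1 lies on either, on chromosome 15, with a change of -0.05 in early LP and 0.08 in median LP. The members that rose lie elsewhere, Cdc25b on chromosome 2 with 8 members in all, Ttk on 9, Ect2 on 3, Ndc80 on 17 and Kif2c on 4.

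There were 9 members with more than 1 transcript in the table, and for each of them the same one led in the mean of every group. The main transcript of Ttk held 96.0 to 97.7% of its counts in the group means, and that of Nusap1 held 94.6 to 95.6%. The main Cdc25b transcript held 64.99 ± 11.03% of counts in HPC, against 74.4 ± 6.50% for early LP and 73.4 ± 3.86% for median LP, so the shares overlapped within their SD. When the most abundant transcript alone was used in place of the sum, Tpx2 lost its call in early LP, at an adjusted p of 0.85, and its main transcript held 39.7 ± 1.18% in HPC and 45.5 ± 4.31% in early LP.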

How the data were processed

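RNA was extracted with Trizol and sequenced from TruSeq libraries, per the labels' protocols. Per the submitters' processing notes, TopHat2 2.0.6 and build mm10 were used; no source used here names the counting program, the annotation release or a use of strand. The deposited table holds FPKM and estimated counts for 21388 RefSeq transcripts in 9 libraries, per the file headers. Estimated counts, made by the authors, totalled 21.9 to 25.8 M per library after their scaling. Low values were whole multiples of 1 step per library in 88.2 to 91.3% of cases (within 0.05 of a step, up to 50 steps), which gave the recovered fragments. 

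Transcripts were summed by symbol and rounded. edgeR 4.0.16 (R 4.3.3) fitted all 9 libraries with TMM scaling and the filterByExpr filter, which left out 3700 genes, with 1 coefficient per group and no covariate. The biological coefficient of variation was 9.81%. The test is two-sided, at an adjusted p under 0.05, and recovered seeded changes in simulated data. Members and lists were chosen with earlier results of these data known, so no test is given over a list. All members are named, with library values for the 6 largest changes in each direction against HPC, the genes called between LP groups, and Cdk1, Ccnb1, Mki67 and Top2a; of other lists, the 3 genes with the lowest adjusted p in early LP were eligible. Alternatives were RLE and upper quartile scaling, no filter, only the groups compared, the replicate number as a block, recovered fragments, a length offset, the top transcript, DESeq2 1.42.0, limma 3.58.1 on log2(FPKM + 1), leaving out each library, and for promoters a window of 150 bases before the start. Anapc15 and Spdl1 were not matched.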

Additional observations from a re-analysis of the deposited data

Results flagged for a closer look

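Of the mitosis genes, 2 differed between the leukemic phases by a test of the difference itself. Nusap1 was higher in median LP than in early LP by 0.3245 on the log2 scale (edgeR adjusted p 0.0484), and Kif23 by 0.2868 (edgeR adjusted p 0.0242), each in 3 of 3 libraries. Both adjusted p values rose above 0.05 when any 1 of the 6 LP libraries was left out. With 3 libraries per group, no test for outlying libraries was run beyond leaving out each library in turn.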

How the results depend on the processing

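No called change of a member turned its sign under any of the 19 alternatives. Against HPC, counts of members called lower stayed within 1.5 times the values given, at 20 to 27 in early LP and 14 to 17 in median LP when 1 library was left out; members called higher were 1 to 4 and 4 to 5. In early LP, members called higher numbered 1 with upper quartile scaling, 4 with the length offset and 1 with limma. Upper quartile scaling moved the members' median change to -0.32 in early LP and -0.16 in median LP, with the median of all genes at -0.11 and -0.12, and limma gave 3 called higher and a median of -0.18 in median LP. With 1 library left out the medians were -0.30 to -0.21 in early LP, -0.10 to -0.04 in median LP and 0.12 to 0.17 between the LP groups, with 7 to 11, 12 to 17 and 36 to 39 members above 0.

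Between the LP groups the calls depended on the setting. The length offset, fitted within each group, takes out spread between the libraries of a group by its design. Members called higher were 1 with RLE, upper quartile scaling, no filter and the top transcript, 6 with only the groups compared, 8 with the length offset, 4 with DESeq2, 0 with limma, and 0 to 6 with 1 library left out. Over all genes, those called lower and higher numbered 243 and 362 with only the groups compared, 363 and 509 with the length offset, 245 and 313 with DESeq2, 39 to 296 and 66 to 391 with 1 library left out, and 75 were lower with the top transcript, in place of 128 and 190. Leaving out HPC 3 raised the members called to 6, and leaving out any LP library lost both calls; the cause was not tested.

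The labels share replicate numbers across groups. Correlations of deviations from the group means ran from -0.21 to 0.12 for same-numbered libraries and from -0.22 to 0.22 for others. With 3 libraries per group, these values cannot decide whether the replicate number pairs the samples. With the number as a block, 23 members fell and 2 rose in early LP, 15 fell and 5 rose in median LP, and 0 were called between the LP groups, where 62 of all genes were lower. Each member had at least 247 recovered fragments in every library, and the effect of depth or of more libraries on the calls was not tested.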
